A study of Mus musculus with 8 samples.

Results

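Cyclins, replication genes and mitotic genes were followed in cells of mouse kidney rudiments that had been sorted for GFP, with embryos that lack Tbx18 or express an activating form of it set against controls. The genes were chosen by name: 36 genes of the cell cycle, represented by 50 probes among the 39429 probes present on both array designs of the study. All 36 were found. They fell into 5 roles: G1 cyclins, their kinases and E2F factors (10 genes), loading of the replicative helicase (9), nucleotide supply and the sliding clamp (4), cyclins and kinases of G2 and mitosis (7), and chromosomes and the spindle checkpoint (6).

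Progress through the cell cycle depends on transcripts that rise and fall with phase. In G1, D-type cyclins with Cdk4 or Cdk6 phosphorylate the retinoblastoma protein, which releases E2F factors, and these raise the transcripts of cyclin E and of replication genes. In G2 and mitosis a second wave, driven through CCAAT boxes and the cell cycle genes homology region, supplies cyclin B, its kinase Cdk1 and the spindle machinery. In the embryonic kidney, mesenchyme around the ureteric bud divides as it forms nephrons, stroma and the ureteric wall. In RNA from pooled cells, fewer cycling cells and less RNA per cycling cell cannot be told apart.

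The series held 8 arrays of NMRI embryos at stage E11.5. The 2 Tbx18VP16 pools came from embryos with 1 Cre allele of Tbx18, so that the Hprt locus expressed GFP and Tbx18 joined to the activation domain of VP16. The 3 Tbx18 null pools came from embryos with GFP in both Tbx18 alleles, and the 3 control pools from embryos with GFP in 1 allele, so control embryos are heterozygous for Tbx18. Each pool held about 100000 cells of both sexes, sorted by GFP and combined over several rounds. Per the labels, 20 ng of RNA was amplified, or 10 ng for pool 3 of null and of control. GFP thus came from Tbx18 itself in null and control pools, and from cells with a history of Tbx18-driven Cre in Tbx18VP16 pools. The Tbx18VP16 arrays were of another design and on another slide than the rest. The genotype, the GFP source, the design and the slide therefore cannot be told apart in either comparison with Tbx18VP16. Pools 1 and 2 of null and of control shared 1 slide and scan, and their pool 3 arrays shared another. For pool 3 the pool, the slide, the scan and the amount of RNA thus cannot be told apart. Nothing in the labels says how many embryos a pool held, and the p-values measure the spread between pools.

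Levels below are log2 of the background-corrected signal relative to the 75th percentile of the array, so 0 is the level of a probe at that percentile. A level belongs to its probe, and levels of different genes are not compared. Between 60.1% and 66.0% of probes exceeded background clearly, and saturated spots were absent. Tbx18 averaged 1.20 ± 0.20 in Tbx18VP16 pools (SD, n = 2), -2.03 ± 0.60 in null pools and 0.74 ± 0.66 in control pools (SD, n = 3 each). Its change in null pools was -2.77 ± 0.44 (SE; adjusted p = 0.118, and 0.0323 with the pool number as a block). All 16 ureteric mesenchyme markers were tested: 8 were higher and 8 lower in Tbx18VP16 than in control pools (1 passed, higher), and 6 were higher and 10 lower in null than in control pools (0 passed, and 2, both lower, with the pool number as a block). Of 18 nephron progenitor markers 14 were higher in Tbx18VP16 than in control pools (median change 0.25), and 3 passed. Between null and control pools 16 of the 18 were higher (median change 1.28), of which 0 passed, and 3 with the block. Beside these marker counts and those below, 5.32% of all genes passed in Tbx18VP16 against control pools. In null against control pools 0% passed, and 0.934% with the block. The summed signal of the nephron progenitor markers, relative to the 75th percentile, was 74.96 and 79.2 in Tbx18VP16 pools. It was 75.9, 72.2 and 76.9 in null pools and 54.5, 46.9 and 42.1 in control pools, so both altered genotypes lay above control. Markers of other cells also differed between arrays. Over the 11 of 14 erythroid markers tested there was a sum of 3.51 and 8.87 in Tbx18VP16 pools, 6.11, 26.2 and 543 in null pools and 7.22, 11.1 and 31.0 in control pools. Over 12 of 13 endothelial markers the sum was 2.07 and 2.54 in Tbx18VP16 pools, 5.04, 4.46 and 18.8 in null pools and 4.50, 3.87 and 3.66 in control pools. For 23 ureteric epithelial markers it ranged from 5.38 to 6.55 in Tbx18VP16 pools, from 3.81 to 21.1 in null pools and from 3.33 to 7.22 in control pools. Null pool 3 was thus the highest for all 3 lists. The 8 platelet markers summed to 4.61 and 9.04 in Tbx18VP16 pools, 0.227 to 1.74 in null pools and 0.202 to 0.245 in control pools. Against control 7 of 8 were higher and 1 lower in Tbx18VP16 pools after adjustment, where 5.32% of all genes passed. The 2 Tbx18VP16 arrays alone could meet the filter of that fit, and only 4 of the 8 could be tested between null and control pools. For probes that entered in this way the count is no test. Of the leukocyte markers, 9 of 10 were tested and 7 were higher in Tbx18VP16 than in control pools (median change 1.33), with 1 passing, the lysozyme gene Lyz2, and their sums ranged from 1.77 to 2.57 in Tbx18VP16, from 1.95 to 3.26 in null and from 1.53 to 1.93 in control pools. The part of all these markers in the results below was not tested, except that values without null pool 3 are given in the closing section.

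Of the 36 genes, 35 had a probe bright enough to test. Ccne2, which encodes cyclin E2, was well above background on 0 of 8 arrays and has no value here. None of the 35 passed an adjusted p of 0.05 in any of the 3 comparisons. That was 0 of 35 between null and control pools, where 0% of 19710 genes passed, and 0 of 35 between Tbx18VP16 and control pools, where 5.32% of 20599 genes passed. Between Tbx18VP16 and null pools it was also 0 of 35, against 3.66% of 20599 genes. With the pool number as a block, still 0 of the 35 passed between null and control pools, against 0.934% of all genes. At an unadjusted p under 0.05 the counts were 1, 3 and 3 of 35, where 4.82%, 22.8% and 22% of all genes stood. The 1 gene was Ccnd2 in null pools, the 3 against control were Ccnd1, Ccnd2 and Mcm3, and the 3 against null were Ccnd1, Cdc6 and Aurka.

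**Figure D1:**
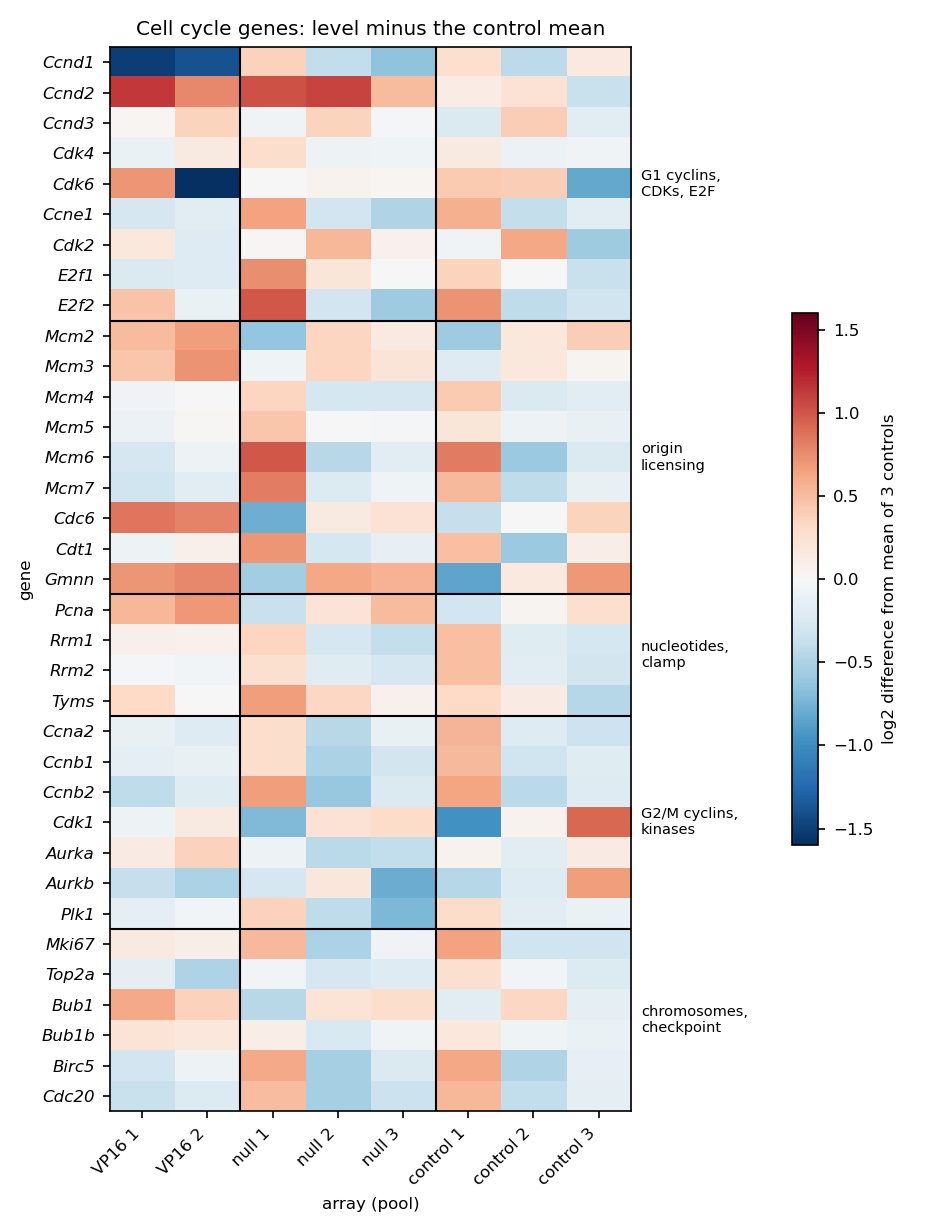
Level of each of the 35 genes tested on each array (columns: Tbx18VP16, Tbx18 null and control pools), as the log2 difference from the mean of the 3 controls, with rows grouped by role. Ccnd1 is low in both Tbx18VP16 pools, Ccnd2 is high in all 5 Tbx18VP16 and null pools, and many rows change between pool 1 and the other pools in null and control alike.

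Cyclin D1 and cyclin D2, which partner Cdk4 and Cdk6 in G1, differed most from control among the 35 genes in Tbx18VP16 pools, in opposite directions, without passing the test. Ccnd1 was read by a probe on chromosome 7, minus strand (mm9, chr7:152116202-152116261). Ccnd1 had levels of 1.62 and 1.73 in Tbx18VP16 pools, 3.49, 2.74 and 2.48 in null pools, and 3.39, 2.71 and 3.29 in control pools. Both Tbx18VP16 pools lay below all 6 other pools, while null and control pools overlapped. The change was -1.45 ± 0.35 against control (SE; 95% interval -2.26 to -0.64; adjusted p = 0.0551), or 0.366 of the control level. Against null it was -1.23 ± 0.35 (adjusted p = 0.0969), and between null and control -0.22 ± 0.34. The first of these sat just above the threshold: normexp background correction, quantile normalisation, the authors' deposited values, a fit of the 5 arrays compared, and a fit without the pool 1 arrays of control and null put it below, at adjusted p from 0.0256 to 0.0479, with changes between -1.32 and -1.45. Leaving out single arrays gave adjusted p from 0.0807 to 0.328.

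Ccnd2 was read by a probe in the coding sequence on the minus strand of chromosome 6 (mm9, chr6:127098696-127098755), shown because Ccnd2 was the 1 gene of the 35 whose pools did not overlap control in either altered genotype. The letters follow the transcript.
Ccnd2 probe: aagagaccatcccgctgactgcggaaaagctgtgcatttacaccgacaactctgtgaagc

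Ccnd2 had levels of 5.15 and 4.79 in Tbx18VP16 pools, 5.03, 5.10 and 4.52 in null pools, and 4.14, 4.25 and 3.67 in control pools. All 5 altered pools lay above all 3 control pools. The change was 0.87 ± 0.28 in null against control pools (SE; 95% interval 0.21 to 1.52; adjusted p = 0.671), a 1.82-fold difference. Within same-numbered null and control pools the differences were 0.89, 0.85 and 0.85, and with the pool number as a block the adjusted p was 0.0591. Against control, Tbx18VP16 pools were 0.95 ± 0.29 higher (adjusted p = 0.107), or 1.94-fold, and against null they differed by 0.09 (95% interval -0.59 to 0.76). Both altered groups were compared with the same 3 control arrays. Ccnd3, the third D-type cyclin, differed by 0.19 ± 0.28 in Tbx18VP16 and by 0.09 ± 0.27 in null pools against control.

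**Figure D2:**
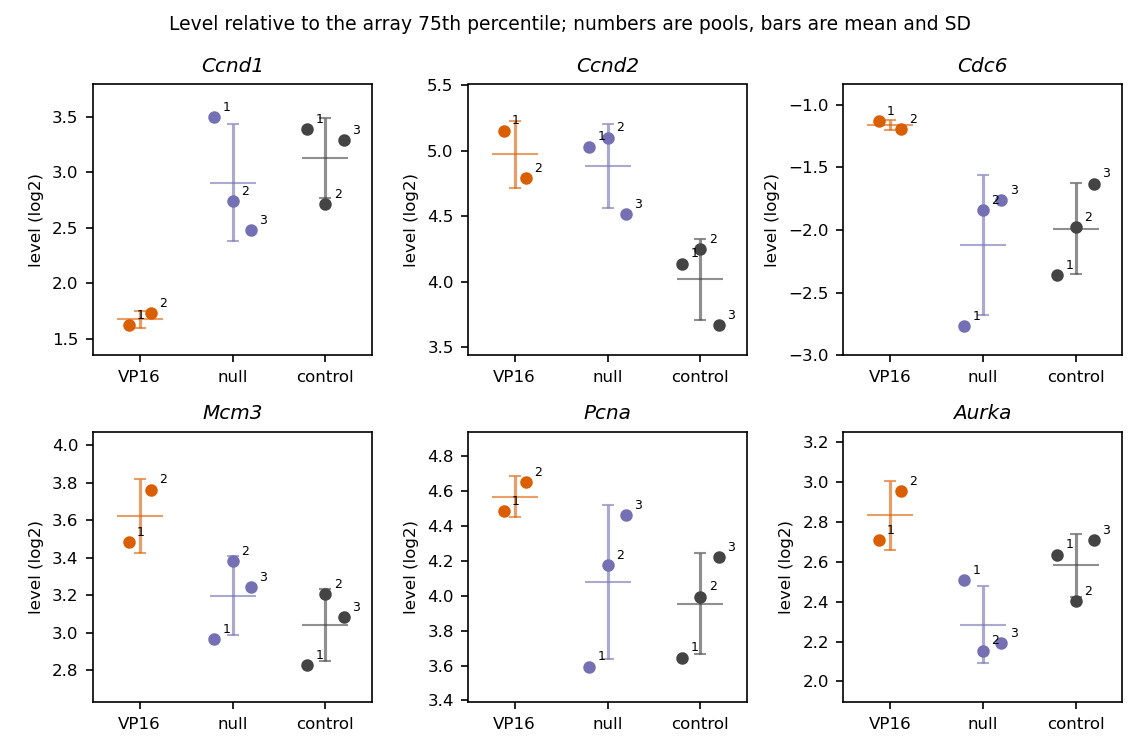
Levels of 6 genes by pool, on a log2 scale relative to the 75th percentile of each array. Points are pools with their numbers, horizontal marks are group means and bars are SD (2 Tbx18VP16, 3 null, 3 control). Ccnd1 separates Tbx18VP16 from the other groups and Ccnd2 separates control from the other groups, while for Cdc6, Mcm3 and Pcna the pool 1 arrays of null and control lie lowest.

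On the probe of each that was brightest over all 8 arrays, the other genes of G1 overlapped between Tbx18VP16 and control pools. E2f1, an activating E2F factor, had levels of -0.14 and -0.12 in Tbx18VP16 pools, 0.83, 0.28 and 0.08 in null pools, and 0.44, 0.09 and -0.27 in control pools. Both Tbx18VP16 pools were below all null pools (change -0.53 ± 0.31, adjusted p = 0.354) and within the range of the controls. Within same-numbered pools E2f1 was higher in null than in control by 0.39, 0.19 and 0.35. With the pool number as a block that change was 0.31 ± 0.12 (SE; adjusted p = 0.377). E2f2, a related factor, ranged from -0.50 to 0.05 in Tbx18VP16, from -0.96 to 0.60 in null and from -0.80 to 0.32 in control pools. Cdk2, the partner of cyclin E, stood at 0.66 and 0.29 in Tbx18VP16 pools, 0.51, 1.03 and 0.56 in null pools, and 0.44, 1.11 and -0.07 in control pools, and the groups overlapped. Ccne1, which encodes cyclin E1, changed by -0.22 ± 0.41 in Tbx18VP16 and by -0.05 ± 0.40 in null pools against control, but a second, dimmer probe gave 0.82 in Tbx18VP16 pools, at 0.65 and 0.42, above all 6 other pools. Cdk6 was well above background on 6 of 8 arrays and ranged from -7.21 to -4.90 within the Tbx18VP16 pools alone. Cdk4, the other partner of D-type cyclins, had 3 probes, which gave changes of 0.02, -0.38 and -0.69 in Tbx18VP16 against control pools and of 0.04, 0.07 and 0.06 in null against control pools. On the last 2 of these probes both Tbx18VP16 pools lay below all 6 other pools, and on the first, the brightest over all 8 arrays, they did not.

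Among helicase loading genes, some members lay higher in Tbx18VP16 pools and none passed the test. Cdc6 and Cdt1 bring the ring of MCM proteins to replication origins, and Gmnn encodes geminin, which blocks Cdt1. In Tbx18VP16 pools 4 of the 9, Mcm2, Mcm3, Cdc6 and Gmnn, lay above every control pool and above every null pool. Cdc6 had levels of -1.13 and -1.19 in Tbx18VP16 pools, -2.77, -1.84 and -1.76 in null pools, and -2.36, -1.98 and -1.63 in control pools. That gave 0.83 ± 0.36 against control (adjusted p = 0.222) and 0.96 ± 0.36 against null (adjusted p = 0.173). A second Cdc6 probe differed by 0.14 and 0.09 in the same comparisons.

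Mcm3, a subunit of the ring, had levels of 3.48 and 3.76 in Tbx18VP16 pools, 2.97, 3.38 and 3.24 in null pools, and 2.83, 3.21 and 3.08 in control pools (change against control 0.58 ± 0.24, adjusted p = 0.206). Mcm2 stood at 2.43 and 2.59 in Tbx18VP16 pools, 1.30, 2.26 and 2.07 in null pools, and 1.36, 2.09 and 2.32 in control pools. In null and control together the pool 1 arrays were 0.33 lower than the others for Mcm3 and 0.86 lower for Mcm2. Gmnn changed by 0.74 ± 0.51 against control (adjusted p = 0.426). Its second probe, annotated to the opposite strand, changed by -0.70. The remaining ring genes did not share this order: Mcm4, Mcm5, Mcm6 and Mcm7 changed by -0.03 ± 0.30, -0.04 ± 0.24, -0.17 ± 0.52 and -0.24 ± 0.39 in Tbx18VP16 against control pools. Cdt1 differed by less than 0.01 there, with a standard error of 0.40.

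In null pools no helicase loading gene separated from control. Of the 9 changes, 6 were positive and 3 negative, between -0.13 (Cdc6) and 0.20 (Gmnn), each smaller than its standard error in the fit without the pool number. Within same-numbered pools Mcm3 was higher in null by 0.14, 0.18 and 0.16, and Mcm5, Mcm6 and Mcm7 were higher in each pair. With the pool number as a block, the changes of Mcm3 (0.16 ± 0.12), Mcm5 (0.14 ± 0.12), Mcm6 (0.12 ± 0.12), Mcm7 (0.18 ± 0.12) and Gmnn (0.20 ± 0.16) exceeded their standard errors, with adjusted p from 0.634 to 0.740. Mcm7 ran at 4.75 and 4.91 in Tbx18VP16 pools, 5.90, 4.85 and 5.01 in null pools, and 5.59, 4.67 and 4.96 in control pools. Mcm5 averaged 3.16 ± 0.08 in Tbx18VP16 pools (SD, n = 2), 3.34 ± 0.26 in null pools and 3.20 ± 0.17 in control pools (SD, n = 3 each). In both, the highest value of null and of control was that of pool 1.

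Nucleotide supply genes also stayed short of the threshold in all 3 comparisons. Rrm1 and Rrm2, the subunits of ribonucleotide reductase, changed by 0.08 ± 0.33 and -0.03 ± 0.30 in Tbx18VP16 pools and by -0.10 ± 0.32 and -0.07 ± 0.30 in null pools against control. Rrm2 had levels of 4.94 and 4.92 in Tbx18VP16 pools, 5.22, 4.76 and 4.69 in null pools, and 5.44, 4.78 and 4.66 in control pools. Tyms, thymidylate synthase, differed by 0.15 ± 0.31 in Tbx18VP16 and by 0.36 ± 0.30 in null pools against control, and its groups overlapped. Within same-numbered pools Tyms was higher in null by 0.35, 0.20 and 0.52. With the pool number as a block its change was 0.36 ± 0.13 (SE; adjusted p = 0.343). Pcna, the clamp that holds the replicative polymerase on DNA, stood at 4.48 and 4.65 in Tbx18VP16 pools, 3.59, 4.18 and 4.46 in null pools, and between 3.65 and 4.22 in the 3 control pools. Both Tbx18VP16 pools were the highest of the 8, by a change of 0.61 ± 0.31 against control (adjusted p = 0.288).

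Of the cyclins and kinases of G2 and mitosis, all 7 had a negative change in null against control pools, with a median of -0.17 beside 0.01 for all genes tested and no member past the threshold. Aurka, a kinase of the spindle poles, had the largest of these at -0.30 ± 0.23. Its levels were 2.71 and 2.96 in Tbx18VP16 pools, 2.51, 2.15 and 2.19 in null pools, and 2.64, 2.40 and 2.71 in control pools. Both Tbx18VP16 pools exceeded every null pool (0.55 ± 0.23, adjusted p = 0.221). Over controls the margin was 0.25 ± 0.23, with Tbx18VP16 pool 1 almost at the level of control pool 3. The negative changes in null pools were not the same within pairs. For pool 1, 4 of 7 genes were higher in null than in control, against 2 of 7 for pool 2 and 1 of 7 for pool 3. Aurka and Plk1 stayed negative in all 18 planned settings, and each of the other 5 turned positive in at least 1 of them. Of the 6 chromosome and checkpoint genes, 0, 0 and 4 were higher in null for pools 1, 2 and 3. Null pool 3 had the most erythroid and endothelial signal, and its part in these counts was not tested.

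Plk1, a kinase needed for spindle assembly, ran at 2.87 and 2.98 in Tbx18VP16 pools, 3.40, 2.63 and 2.31 in null pools, and 3.31, 2.85 and 2.92 in control pools. Cyclin B1 (Ccnb1), the partner of Cdk1, changed by -0.13 ± 0.34 in Tbx18VP16 and -0.17 ± 0.33 in null pools against control, and its 3 probes lay between -0.14 and 0.02 in the first of these. Ccnb2 had levels of 3.35 and 3.56 in Tbx18VP16 pools, 4.42, 3.16 and 3.53 in null pools, and 4.40, 3.34 and 3.55 in control pools. Cyclin A2 (Ccna2), which acts from S phase into mitosis, changed by -0.16 ± 0.34 and -0.10 ± 0.33. Cdk1 changed by 0.03 ± 0.54 and -0.06 ± 0.51, with the widest intervals of this role. Aurkb, the kinase of the chromosomal passenger complex, was dim, at -4.96 ± 0.10 in Tbx18VP16 (SD, n = 2), -4.81 ± 0.49 in null and -4.52 ± 0.59 in control pools (SD, n = 3 each).

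Chromosome and checkpoint genes did not pass either. Top2a, which untangles sister chromatids, had levels of 1.91 and 1.56 in Tbx18VP16 pools, 2.01, 1.78 and 1.85 in null pools, and 2.31, 2.01 and 1.84 in control pools. It changed by -0.32 ± 0.24 in Tbx18VP16 (adjusted p = 0.477) and by -0.17 ± 0.24 in null pools. Bub1, a checkpoint kinase at kinetochores, stood at 2.13 and 1.89 in Tbx18VP16 pools, 1.08, 1.75 and 1.81 in null pools, and 1.34, 1.85 and 1.38 in control pools, so both Tbx18VP16 pools were the highest (0.49 ± 0.30 against control, adjusted p = 0.382). Its relative Bub1b differed by 0.19 ± 0.22 and lay above every null pool but not every control pool. Mki67, the gene of the Ki-67 proliferation antigen, changed by 0.12 ± 0.40 in Tbx18VP16 and by -0.02 ± 0.38 in null pools. Birc5, the survivin subunit of the passenger complex, changed by -0.19 ± 0.42 and -0.05 ± 0.41, and Cdc20, the activator of the anaphase-promoting complex, by -0.29 ± 0.39 and -0.13 ± 0.37.

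**Figure D3:**
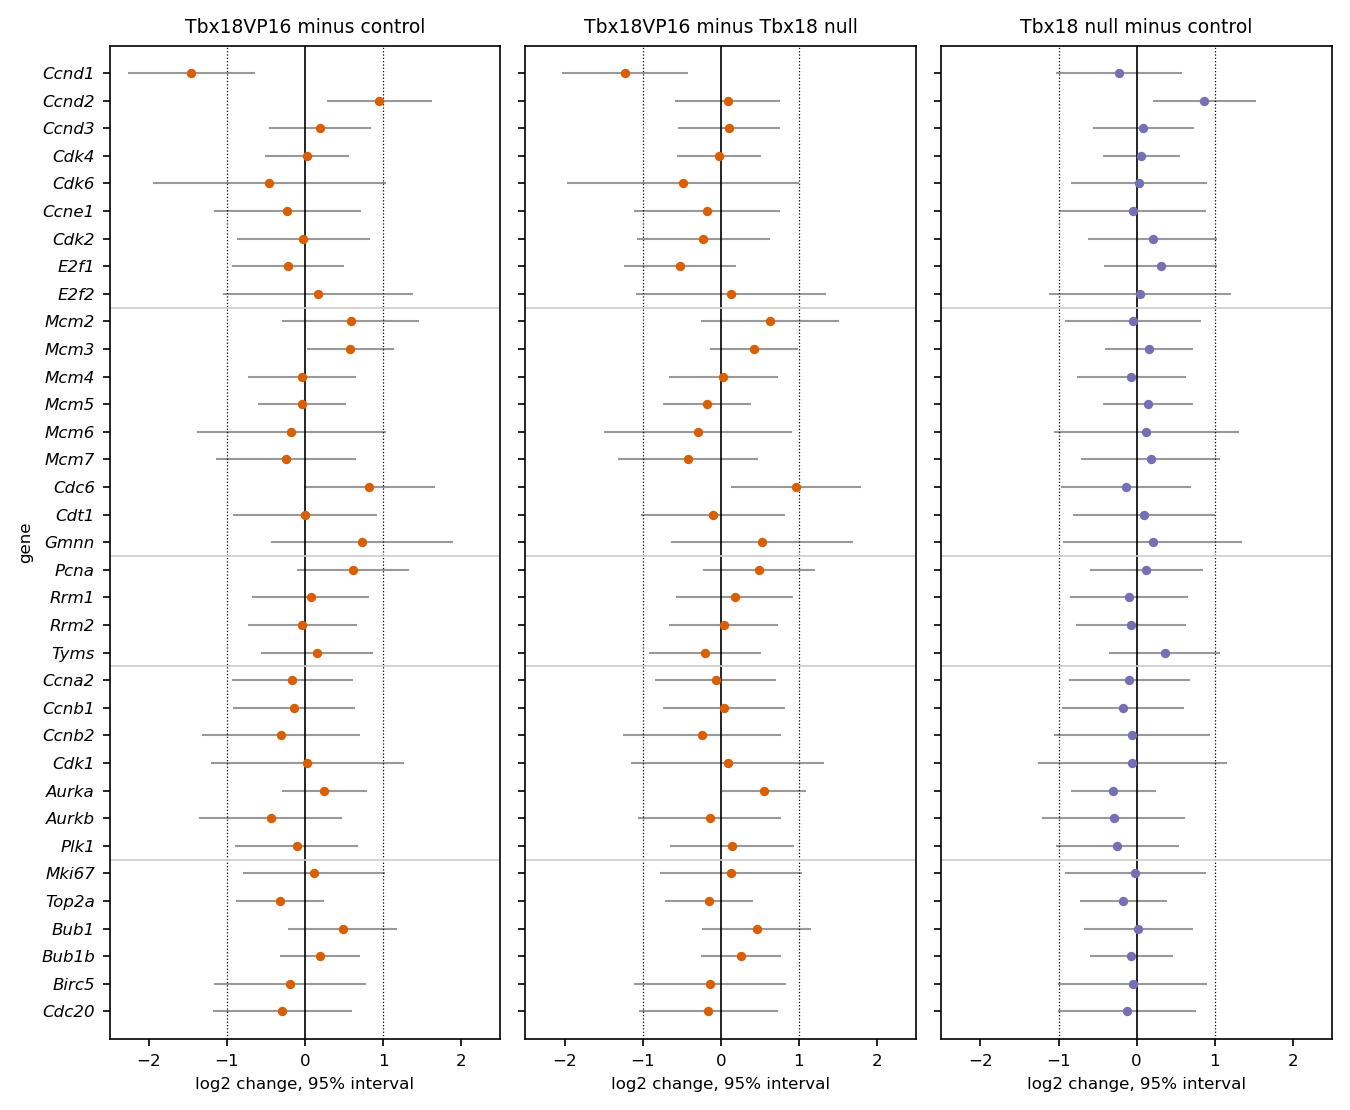
Log2 change of each gene in Tbx18VP16 against control, Tbx18VP16 against Tbx18 null and Tbx18 null against control. Bars are 95% intervals from the fits without the pool number, and dotted lines mark a 2-fold change. Ccnd1 lies beyond the lower line in both Tbx18VP16 panels, and Ccnd2 is the 1 gene whose interval leaves 0 in the null panel.

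Seen over all 35 genes, 1 gene (Ccnd1) reached a 2-fold difference between Tbx18VP16 and control pools, where 17.8% of all genes did, and the same gene did so between Tbx18VP16 and null pools, where 16.9% did. None reached it between null and control pools, where 4.15% did. The median change of the 35 was -0.02 in Tbx18VP16 against control pools, beside -0.14 for all genes tested, 0.03 against null pools beside -0.15, and -0.04 in null against control pools beside 0.01. The median size of the change was 0.19, 0.18 and 0.12 for the 35, beside 0.43, 0.44 and 0.15 for all genes, in that order. A 95% interval that stayed within 2-fold either way was obtained for 16 of 35 in the first comparison (30.8% of all genes), 14 of 35 in the second (30.2%) and 19 of 35 in the third (56.2%). For the rest, a 2-fold difference lay inside the interval. These intervals come from fits without the pool number. With the pool number as a block, most standard errors between null and control pools were smaller. That of Mcm6 was 0.12 beside 0.50 and that of Ccnb2 0.12 beside 0.42, while that of Aurkb was 0.39 in both. Intervals of the fit with the block were not counted. The median interval reached 0.79 log2 to either side. With each array's median in place of its 75th percentile the medians were 0.19 beside 0.06, 0.31 beside 0.12 and -0.11 beside -0.06.

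**Figure D4:**
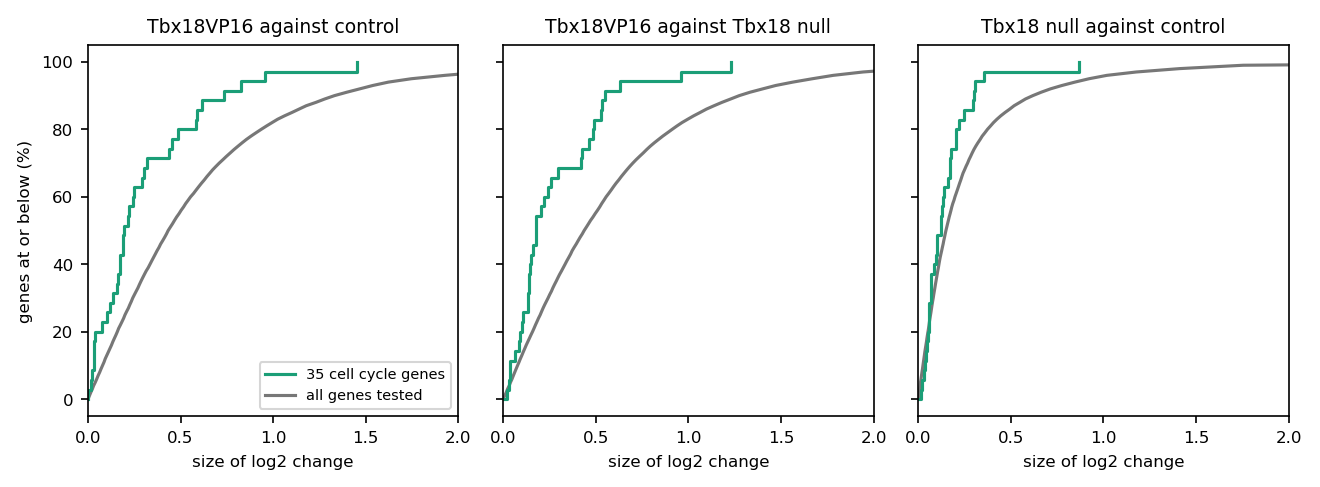
Share of genes with a log2 change of at most a given size, for the 35 cell cycle genes and for all genes tested, in 3 comparisons. The curve of the 35 genes runs above that of all genes in both Tbx18VP16 comparisons, with medians of 0.19 and 0.18 beside 0.43 and 0.44, and close to it between null and control pools (0.12 beside 0.15).

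Counted by overlap of the pools, 8 of 35 genes were higher in both Tbx18VP16 pools than in every control pool (Ccnd2, Mcm2, Mcm3, Cdc6, Gmnn, Pcna, Aurka and Bub1), where 17.4% of all genes were. For 1 gene, Ccnd1, both pools were lower, where 30.3% were. Cdk4 was counted on its probe of 0.02, though both Tbx18VP16 pools were lower on its other 2 probes. Against null pools 8 were higher (16.2% of all genes) and 2 lower, Ccnd1 and E2f1 (31.9%). In null against control pools Ccnd2 alone was higher (4.16%) and 0 were lower (3.59%). Both comparisons of Tbx18VP16 share its 2 arrays.

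Many of these genes differed between pool numbers in the same way in both genotypes. Pools 1, 2 and 3 of null and control were taken as matched by number. In a fit with genotype and pool number 19 of 35 genes differed between pool numbers at an adjusted p under 0.05, where 37.5% of all genes did. For 20 of 35 both pool 1 arrays lay above all 4 arrays of pools 2 and 3 (40.6% of all genes), and for 7 of 35 below them (17%). On the brightest probe of each, the genes furthest above in pool 1 were Mcm6 (1.28 log2, adjusted p = 0.0244), E2f2 (1.26) and Ccnb2 (1.02). They were followed by Birc5, Ccne1, Mki67, Mcm7 and Cdc20 at 0.87 to 0.95. Other probes gave -0.83 for Ccne1, 0.39 and -0.27 for Birc5 and 0.14 for Mki67, so for these genes the difference varied with the probe. Mcm6, E2f2, Ccnb2, Mcm7 and Cdc20 had 1 probe each. Mcm6, a subunit of the helicase ring, had levels of 6.01, 4.58 and 4.83 in null pools 1 to 3, and 5.85, 4.42 and 4.79 in control pools 1 to 3. Its Tbx18VP16 levels of 4.75 and 4.94 were nearer to those of pools 2 and 3 than to those of pool 1.

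The 7 genes below in pool 1 were Gmnn and Cdk1 (both -1.21), Mcm2, Cdc6, Pcna, Bub1 and Mcm3. Cdk1 had levels of -0.50, 0.43 and 0.50 in null pools 1 to 3 and -0.77, 0.26 and 1.12 in control pools 1 to 3, opposite to its partner Ccnb2. These 7 also shared probe composition: each probe had at most 35% G and C bases. Over the 35 probes the difference of pool 1 from the others correlated with the share of G and C at r = 0.60, and over all 20599 genes tested at r = 0.30. Of the 12 genes with probes of 35% or less, 8 were lower in pool 1, as were 58.1% of the 5018 such genes among all genes. Of the 23 others 2 were lower, and 28.9% of all such genes. The other Cdk1 probes changed by -0.32 and 0.51 with pool number, and a second Cdc6 probe by 0.41. On the Cdk1 probe of -0.32 the pool 1 arrays lay within the range of the others, and control pool 3 was far higher. For Gmnn the second probe, annotated to the opposite strand, changed by 0.88, and for Mcm3 the second probe changed by -0.77. The part of probe composition in the differences between pools was not tested.

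Over the 35 probes the changes in Tbx18VP16 against control pools did not correlate with the share of G and C (r = -0.003). The correlation was -0.26 over the 33 genes other than Ccnd1 and Ccnd2, and -0.22 over all genes tested. Split by composition, the direction of change did differ, and the part of composition was not tested. Of the 12 genes with probes of 35% G and C or less, 8 were higher in Tbx18VP16 than in control pools, as were 64.5% of such genes among all genes. Of the 23 others 8 were higher, and 33.2% of all such genes. The 8 genes above every control pool had such probes except Ccnd2, and so did 4 genes with negative changes, Ccnd1 (-1.45), Aurkb (-0.44), Ccnb1 (-0.14) and Rrm2 (-0.03). Without the pool 1 arrays of control and null, the changes in Tbx18VP16 against control pools became 0.31 for Gmnn (against 0.74 with all arrays) and 0.30 for Mcm2 (against 0.59). They were 0.64 for Cdc6 (adjusted p = 0.0961), 0.48 for Mcm3, 0.46 for Pcna, 0.39 for Bub1, 0.28 for Aurka, 1.01 for Ccnd2 and -1.32 for Ccnd1, the last with an adjusted p of 0.0268.

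**Figure D5:**
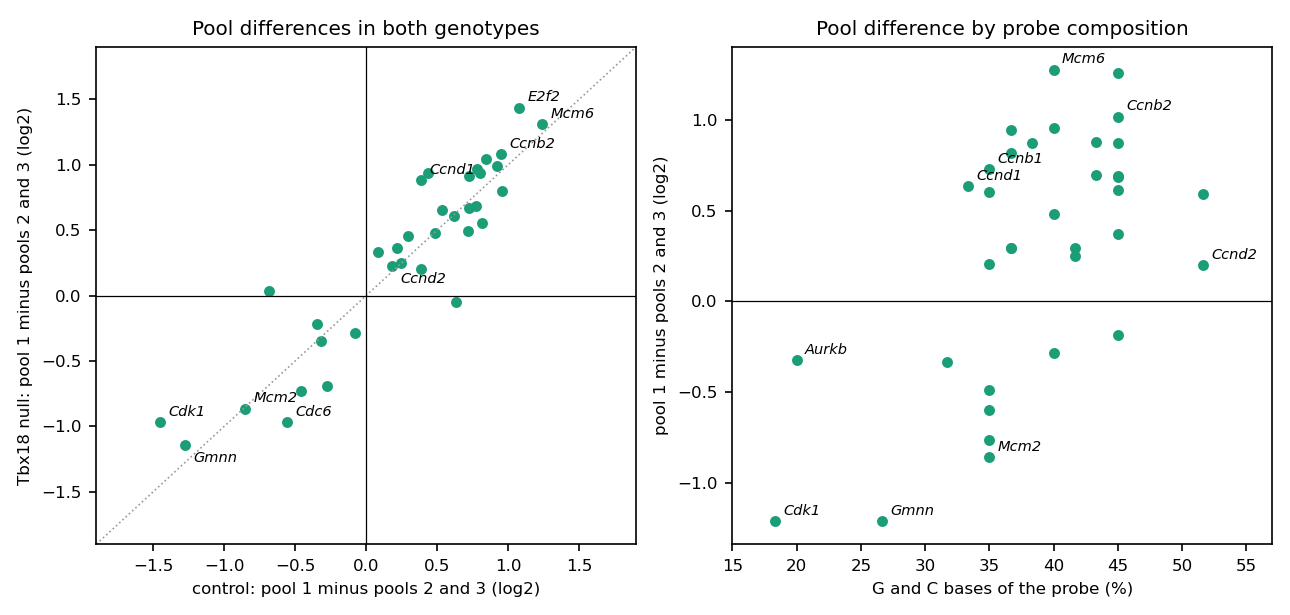
Left, the difference of pool 1 from the mean of pools 2 and 3 for each of the 35 genes in control (horizontal) and Tbx18 null (vertical), in log2, with a dotted line of equality. Right, the mean of both differences against the share of G and C bases in the probe. The genotypes show similar differences, and the 2 genes furthest below, Gmnn and Cdk1, have probes of 26.7% and 18.3% G and C.

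Promoter sequence from RefSeq (GRCm38.p6), 250 bases before to 50 after the start, was found for 29 of the 36 genes. The entries not found are those of Ccnd1, Ccnd2, Ccne2, Mcm4, Gmnn, Ccna2 and Aurkb. Letters of the known cell cycle elements were searched on both strands. CCAAT, the box bound by NF-Y, was present in 21 of 29 (72.4%), against 41.1% of 27025 promoters in the table, and at least 2 copies in 14 (48.3%, against 13.3%). The E2F letters TTGGCGC, either TTCGCGC or TTCCCGC, and also TTGCCGC were searched, and at least 1 of them was present in 13 (44.8%, against 10.9%). The homology region letters TTTGAA or TTCGAA were present in 12 (41.4%, against 21.7%). CCAAT read on the other strand can share bases with TTGGCGC. Promoters of 5 genes are printed, 120 bases ending at the base before the start. On the brightest probe of each, their levels moved together (Mcm6, Ccnb1, Ccnb2 and Cdc20, above in pool 1) or against these (Cdk1). For Ccnb1 the brightest probe was 0.73 higher in pool 1, and its other probes 0.14 and 0.11. Capitals mark the CCAAT, E2F and homology region letters on either strand.
Mcm6 (chr1:128359706-128359825, minus): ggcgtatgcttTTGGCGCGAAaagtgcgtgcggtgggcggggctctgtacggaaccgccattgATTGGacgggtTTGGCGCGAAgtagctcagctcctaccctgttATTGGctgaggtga
Ccnb1 (chr13:100786487-100786606, minus): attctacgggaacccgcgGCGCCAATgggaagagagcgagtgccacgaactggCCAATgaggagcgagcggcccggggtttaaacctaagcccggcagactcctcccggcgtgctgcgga
Ccnb2 (chr9:70421555-70421674, minus): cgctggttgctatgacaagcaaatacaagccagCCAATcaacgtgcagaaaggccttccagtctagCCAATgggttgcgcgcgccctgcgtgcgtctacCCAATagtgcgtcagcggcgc
Cdc20 (chr4:118437344-118437463, minus): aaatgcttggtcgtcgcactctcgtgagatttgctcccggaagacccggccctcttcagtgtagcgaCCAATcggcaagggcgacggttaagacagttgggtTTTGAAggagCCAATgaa
Cdk1 (chr10:69352913-69353032, minus): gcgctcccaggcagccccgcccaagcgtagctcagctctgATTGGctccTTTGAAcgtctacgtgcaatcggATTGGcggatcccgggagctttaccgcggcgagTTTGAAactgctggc

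Mcm6 shows 4 E2F matches, as pairs of overlapping TTGGCGC and reversed TTCGCGC, beside 2 CCAAT boxes. The mitotic genes Ccnb1, Ccnb2 and Cdc20 show 2, 3 and 2 CCAAT boxes. Cdk1 has 2 CCAAT boxes and 2 copies of the homology region letters. Its order among the pools depends on the probe. The brightest, of 18.3% G and C, was lower in pool 1. A dimmer probe of 18.3%, which overlaps it, averaged 0.32 lower, with control pool 3 at -2.16. On that probe pool 1 of control and null (-3.46 and -3.42) lay above control pool 2 (-3.56) and null pool 3 (-3.54). The third, a dimmer probe of 45%, was 0.51 higher, the direction of Ccnb2. A match describes the letters and is not a measured site.

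In wider lists of the cell cycle 1 gene passed. Of 38 genes of origins and replication forks, 31 of spindle and kinetochore and 20 of mitotic entry and exit, 0 passed in each of the 3 comparisons. At an unadjusted p under 0.05, in the order null against control, Tbx18VP16 against control and Tbx18VP16 against null, the forks had 0, 0 and 1, the spindle 0, 2 and 1, and entry and exit 0, 2 and 0, where 4.82%, 22.8% and 22% of all genes stood (0%, 5.32% and 3.66% after adjustment). The smallest p values in Tbx18VP16 against control pools were those of Rpa3, a subunit of the single-strand binding complex (-0.49 ± 0.22), Racgap1, which acts in cytokinesis (-0.93 ± 0.38, adjusted p = 0.195), and the ubiquitin ligase subunit gene Btrc (0.63 ± 0.26). Against null pools they were Pole2 (0.65 ± 0.26), a polymerase epsilon subunit, and Smc4 (0.64 ± 0.22), a condensin subunit. Of 19 E2F, RB and MYB-MuvB regulators, 1 passed: Lin54, the DNA-binding subunit of the complex that recognises the homology region, was 1.01 ± 0.22 higher in Tbx18VP16 than in null pools (adjusted p = 0.0473), with means of 0.41 in Tbx18VP16 (n = 2), -0.60 in null and -0.32 in control pools (n = 3 each).

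Inhibitors of cyclin-dependent kinases, which oppose the cyclins above, did include a gene that passed, Cdkn1a. Of 7 in the fit, 2 had an adjusted p under 0.05 in Tbx18VP16 against control pools, both higher, where 5.32% of all genes passed in either direction. One of these, Cdkn2b, met the filter only through the altered pools, so for it the count is no test. Cdkn1a, the gene of p21, was 3.42 ± 0.70 higher (adjusted p = 0.0340), with means of -1.52 in Tbx18VP16, -2.78 in null and -4.94 in control pools, and was well above background on 2 of 3 control arrays. Cdkn2b, the gene of p15, an inhibitor of Cdk4 and Cdk6, averaged -3.47 in Tbx18VP16 and -4.27 in null pools and was not well above background on any control array. Its fold is a bound: at least 7.78-fold higher in Tbx18VP16 and at least 4.47-fold higher in null pools. The fits used its levels as measured, with control below background, and gave an adjusted p of 0.00259 in Tbx18VP16 pools. In null pools it was 0.0681, and 0.0210 with the pool number as a block. These p-values do not test the bounds, and as Cdkn2b entered only through the altered pools they are no test of a difference. In null against control pools Cdkn1a was 2.16 ± 0.67 higher, with an adjusted p of 0.631 and of 0.0428 with the block. Neither passed between Tbx18VP16 and null pools.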

How the data were processed

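RNA was measured on 8 Agilent arrays of 1 colour with probes of 60 bases. Per the file headers, spot intensity was extracted with Agilent Feature Extraction 10.7.3.1, which corrected the background; the authors' deposited value table is an intensity on a linear scale, with identical sorted values in every column and a floor of 10, and served as an alternative. Control spots and outlier spots were left out (1.86% to 2.55%), repeated spots averaged, and the processed signal taken as log2 minus its 75th percentile on each array over the 39429 shared probes (975.9 to 2129 before scaling). Tests took probes that exceeded background on 3 or more of the 6 arrays of null and control, or on 2 or more of all 8 for Tbx18VP16. A gene is its brightest tested probe, with gene names updated through RefSeq tables (GRCm38.p6), while coordinates are those of the files (mm9). Accessions named 27508 probes, symbols 3544 and synonyms 404, while 5134 took the name in the file and 2839 without a name stayed as separate features.

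Null and control were compared on their 6 arrays and Tbx18VP16 in a fit of 3 groups on 8 arrays, with lmFit and eBayes of limma 3.58.1 in R 4.3.3. The p-values were adjusted by Benjamini-Hochberg across all tested features, two-sided, with a threshold of 0.05. The 3 comparisons without a block were tested on simulated data first, and that simulation held no pool effect and no block. Deviations from the group mean correlated at 0.827, 0.708 and 0.429 for null and control pools of the same number, and at -0.753 to 0.321 otherwise. The numbers were therefore taken to pair these samples. These correlations come from the data then tested. As deviations within a group sum to 0, positive values for the same number force negative ones elsewhere. Replicate number, scaling, background, filter, probe choice, slide and samples were varied. The number of arrays limits the precision. The test of pool number was chosen after seeing the data. All 36 genes are accounted for, and values were given for up to 4 of smallest p per role and comparison, with up to 3 of every other list. The genes and lists were chosen with earlier results of these data known.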

Additional observations from a re-analysis of the deposited data

How the results depend on the processing

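No member of the 35 passed between null and control pools in any of the 19 settings tried. In Tbx18VP16 against control pools 1 gene, Ccnd1, passed under normexp background correction, quantile normalisation, the authors' deposited values, a fit of the 5 arrays compared and, chosen after seeing the data, a fit without the pool 1 arrays of control and null. With a replicate block, 2 genes passed against control and 2 against null (Ccnd1 and Cdc6 in both), although the numbers of Tbx18VP16 pools did not pair with those of the other groups (r between -0.255 and 0.255), and that block changed no other count of members. The cause of these shifts was not tested. With the array median in place of the 75th percentile, the median change of the 35 against null pools was 0.306. Leaving out each array in turn left 0 members passing in all 3 comparisons, with median changes from -0.205 to 0.139 in null against control, -0.0991 to 0.122 in Tbx18VP16 against control and -0.0916 to 0.162 in Tbx18VP16 against null pools, which without null pool 3 were 0.03 in the first and -0.09 in the last. Ccnd1 was lower in Tbx18VP16 than in control pools in all 15 planned settings (-1.66 to -1.25) and Ccnd2 higher (0.77 to 1.22).

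Counts over all genes moved more. For null against control pools 0 genes passed, and 184 with the replicate block, 70 in the fit of all 8 arrays, 6 with slide as a block, 4 without null pool 1 and 1 with no filter. For Tbx18VP16 against control pools 1095 passed, and 3640 with the block, 657 with the stricter filter, 623 with normexp, 295 without control pool 2, 81 and 58 without Tbx18VP16 pool 1 or 2, and 2411 without the pool 1 arrays. Against null pools 753 passed, and 3285 with the block, 1705 without the pool 1 arrays, 466 with the stricter filter, 432 in the fit of 5 arrays, 397 with normexp, 447 and 150 without null pool 3 or 2, and 29 and 11 without Tbx18VP16 pool 1 or 2. Of genes passing against control, 38.4% were higher, and 57.6% with the array median, or 563 of 1127 with the authors' values. Against null these shares were 32.0%, 58.7% and 49.6%, and 46.0% with quantile normalisation. Ccne2 on all arrays, and Cdk6 on 2 of 8, did not exceed background, which limits what can be said of their levels.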
